A study of Rattus norvegicus with 4 samples.

Results

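The peroxiredoxin and thioredoxin system was examined in the rat cell line NR8383, macrophages first obtained by washing out a lung, after exposure to the carbon black Printex90 for 4 h. It was taken as 10 genes: the peroxiredoxins Prdx1 to Prdx6, the thioredoxins Txn1 and Txn2, the thioredoxin reductase Txnrd1 and the sulfiredoxin Srxn1. The genes were chosen by name, with earlier results of these data known. Every probe whose RefSeq accession belongs to one of them was used. All 10 genes were found among the 16581 named genes of the array, with 11 probes on 39 spots.

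The one group analysed here held 4 biological replicates of cells labelled ALI_CB, at 20 passages, given Printex90 at 0.9 cm2/cm2. Total RNA of each replicate was read on its own 1-colour Agilent array. The meaning of ALI is not spelled out in the label. Cells without the particles are part of the study's design but were not analysed here, so that no value below is a response to the particles, and differences are differences between replicate cultures and arrays. A line kept in culture also stands for 1 cell source and not for several animals.

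Peroxiredoxins are enzymes that reduce hydrogen peroxide and organic peroxides through a reactive cysteine, which is oxidised in each cycle. Thioredoxin returns the oxidised enzyme to its reduced form and is itself reduced by thioredoxin reductase with electrons from NADPH. Sulfiredoxin rescues peroxiredoxins whose cysteine has been oxidised further to sulfinic acid. In macrophages, which make superoxide and peroxide during phagocytosis, the system protects the cell and also tunes peroxide signals, and the genes Prdx1, Txn1, Txnrd1 and Srxn1 are known targets of the transcription factor NRF2.

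By the scanner software's flag, all 10 genes stood well above background on each of the 4 arrays, against 50.8% of all named genes. Both probes of Txnrd1 and all spots of the probes printed more than once also met this condition on every array. The weakest reading among the 11 probes was that of one Txnrd1 probe, at 28.8-fold to 56.1-fold the median negative-control spot of its array. The Txn1 probe read 21580-fold to 27620-fold above the same spots, and no spot on any array was saturated. The count was 9 of 10 when blocks of spots that were bright on some array were taken out, because the single spot of Srxn1 lies in such a block of replicate 3.

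Of 12 macrophage markers 10 were detected on all 4 arrays, with Adgre1 detected on 2 arrays and Marco on 1. None of 8 lung epithelial markers and none of 3 measured neutrophil markers was detected on all arrays. Of 3 measured erythroid markers, which bear on Prdx2 because red cells are rich in it, Hba-a1 was detected on all arrays and Hbb and Alas2 on none. Endothelial markers gave 3 of 4 (Pecam1, Cdh5 and Vwf), fibroblast markers 1 of 4 (Dcn) and lymphocyte markers 1 of 3 (Cd3d). Dcn, Hba-a1, Cd3d and 2 of the 3 detected endothelial markers were lowest on replicate 1, as were Prdx3, Txn2 and Txnrd1, and their part in these values was not tested. The macrophage markers Cd68, Csf1r and Cd14 were lowest there too, 3 of the 10 detected, as were 20.9% of all detected genes. The arrays detected 8917 to 9985 named genes each, with the highest number on replicate 4.

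The sequence before the start of the genes was read from the RefSeq promoter table of the GRCr8 assembly, which matched 9 of the 10 genes and leaves Prdx6 unprinted. The 250 bases before the start are shown for the pairs Prdx1 with Prdx2 and Prdx5 with Srxn1, whose ratios over the 4 arrays had the smallest SDs, and for Txnrd1, which had the largest SD. These SDs depend on the processing, as given with the values. Capitals mark, on either strand, the core of the antioxidant response element to which NRF2 binds (TGACNNNGC) and the binding motif of the transcription factor AP-1 (TGACTCA).
Prdx1, chr5:135383656-135383905, plus strand: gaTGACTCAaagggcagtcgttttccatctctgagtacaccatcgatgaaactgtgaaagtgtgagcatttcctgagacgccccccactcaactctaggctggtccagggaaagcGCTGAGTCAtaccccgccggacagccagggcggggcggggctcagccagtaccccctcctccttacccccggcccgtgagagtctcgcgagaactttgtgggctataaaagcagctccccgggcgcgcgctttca
Prdx2, chr19:40090983-40091232, minus strand: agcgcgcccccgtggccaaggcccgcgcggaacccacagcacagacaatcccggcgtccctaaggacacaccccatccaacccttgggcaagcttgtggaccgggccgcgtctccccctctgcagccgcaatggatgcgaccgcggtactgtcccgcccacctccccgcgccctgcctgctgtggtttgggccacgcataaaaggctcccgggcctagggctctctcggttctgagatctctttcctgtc
Prdx5, chr1:213532028-213532277, minus strand: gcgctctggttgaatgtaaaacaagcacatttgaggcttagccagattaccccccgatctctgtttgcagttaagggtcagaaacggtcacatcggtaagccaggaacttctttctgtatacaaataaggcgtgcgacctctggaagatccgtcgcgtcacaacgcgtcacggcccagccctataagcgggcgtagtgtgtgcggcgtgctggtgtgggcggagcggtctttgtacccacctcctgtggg
Srxn1, chr3:161064562-161064811, plus strand: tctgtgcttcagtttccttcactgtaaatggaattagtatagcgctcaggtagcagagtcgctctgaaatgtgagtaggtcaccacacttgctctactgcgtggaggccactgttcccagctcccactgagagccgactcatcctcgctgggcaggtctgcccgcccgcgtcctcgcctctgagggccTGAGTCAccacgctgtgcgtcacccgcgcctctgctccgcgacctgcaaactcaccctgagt
Txnrd1, chr7:22755905-22756154, minus strand: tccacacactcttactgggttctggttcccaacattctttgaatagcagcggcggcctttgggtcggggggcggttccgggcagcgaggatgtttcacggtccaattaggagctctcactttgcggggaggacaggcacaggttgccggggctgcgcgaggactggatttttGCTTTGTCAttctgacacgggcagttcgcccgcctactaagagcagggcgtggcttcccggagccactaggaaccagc

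In these windows the NRF2 core was present before Prdx1 and before 1 of the 2 listed starts of Txnrd1, so in 2 of the 10 windows of the family, against 10.1% of all 33469 windows of the table. The match before Prdx1, read on the minus strand as TGACTCAGC, overlaps an AP-1 motif. The AP-1 motif was found at 2 places before Prdx1 and at 1 before Srxn1, against 4.05% of all windows with at least 1. A GC box (GGGCGG, either strand) was present in 9 of the 10 windows, against 30.5% of all windows, which include those of long non-coding RNAs. The box is made only of G and C. The windows with it held 55.2% to 71.2% G or C and the window without it 42%, against a median of 51.2% over all windows. The windows of Prdx2 to Prdx5, Txn1 and Txn2 held neither the NRF2 core nor the AP-1 motif. These are matches of letters and show no binding, and a window without a match says nothing of elements outside it.

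Levels are log2 intensities from which the 75th percentile of the array (non-control probes) was subtracted, so that 0 is that percentile. Each comes from its own probe, and probes differ in how strongly they bind, so that levels of different genes are not ranked. The label Prdx1 to Prdx6 covers enzymes of different compartments and mechanisms, and the genes are taken by these.

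Prdx1, the abundant peroxiredoxin of the cytosol and nucleus, had levels of 6.30, 6.04, 6.18 and 6.22 on replicates 1 to 4. Replicate 1 was highest and replicate 2 lowest, a difference of 1.19-fold. Prdx2, its close relative in the cytosol, had levels of 6.45, 6.24, 6.34 and 6.32 and took the same extremes, with a range of 1.15-fold. Their SDs were 0.11 and 0.08 (n = 4 for both). The SD of Prdx2 was the smallest of the 10 genes, with 13% of the detected genes below it, but it was 0.252 after normexp background correction, where it was among the largest.

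Prdx3, the peroxiredoxin of the mitochondrial matrix, had levels of 3.09, 3.20, 3.37 and 3.17, and its SD was 0.12 (n = 4). Its probe was printed on 2 spots per array, whose SD within an array was 0.02 to 0.06. Prdx4, which lies in the endoplasmic reticulum and is also secreted, had levels of 3.45, 3.33, 3.73 and 3.25. Prdx4 stood apart on replicate 3, and its SD was 0.21 (n = 4), larger than that of 67.2% of the detected genes. Without replicate 3 the SD was 0.10, below those of Prdx1, Prdx2 and Prdx6, and after normexp it was 0.117.

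Prdx5, found in mitochondria, peroxisomes and cytosol, had levels of 8.49, 8.46, 8.71 and 8.34, with an SD of 0.15 (n = 4). It was highest on replicate 3 and lowest on replicate 4, a range of 1.29-fold. Prdx6, which uses a single catalytic cysteine and glutathione in place of thioredoxin and is also a phospholipase of lung surfactant metabolism, had levels of 2.99, 2.72, 3.05 and 2.91. It was lowest on replicate 2, and its SD was 0.14 (n = 4).

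Txn1, the thioredoxin of the cytosol, had levels of 9.40, 9.45, 9.48 and 9.27, with an SD of 0.09 (n = 4). Replicate 4 was lowest and the other arrays lay within 0.08 of each other. Txn2, the thioredoxin of mitochondria, had levels of 3.39, 3.63, 3.74 and 3.70, with an SD of 0.16 (n = 4). Here it was replicate 1 that lay below the rest.

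Txnrd1, the selenium-containing reductase of the cytosol, is read by a pair of probes. By the brighter of these it had levels of 0.32, 0.78, 0.85 and 0.88, with an SD of 0.26 (n = 4), larger than that of 80% of the detected genes. This was the largest SD of the 10 genes and, for this probe, rests on replicate 1, which lay below the other arrays. Without replicate 1 it was 0.054, and Prdx4 had the largest at 0.258. After normexp Txnrd1 (0.226) was also exceeded by Srxn1 (0.328) and Prdx2 (0.252). With flagged spots kept it was exceeded by Prdx4 (0.245, against 0.241). With the array median Prdx4 had the largest SD (0.538), and Srxn1, Prdx5, Prdx6, Prdx3 and Txn1 also exceeded Txnrd1 (0.393). The other probe gave 0.01, -0.10, 0.37 and 0.33, with an SD of 0.23 (n = 4), and was lowest on replicate 2. Both probes read below their own means on replicate 1 and above them on replicates 3 and 4, but they disagreed on replicate 2, where the brighter probe lay 0.87 above the other against 0.31 to 0.55 elsewhere. The mean of both probes was 0.43.

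Srxn1, which reduces peroxiredoxin sulfinic acid, had levels of 5.60, 5.57, 5.77 and 5.36, with an SD of 0.17 (n = 4). Replicate 3 was highest and replicate 4 lowest, a range of 1.33-fold. This rests on a single spot. The 41 well-measured spots within 5 rows and 5 columns of it had a median deviation of 0.31 on replicate 3 and -0.32 on replicate 4, against 0.19 and -0.21 for Srxn1 itself. Measured against those neighbours, Srxn1 lay at -0.11 on replicate 3 and 0.10 on replicate 4, so that its order on these arrays turned round.

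**Figure D1:**
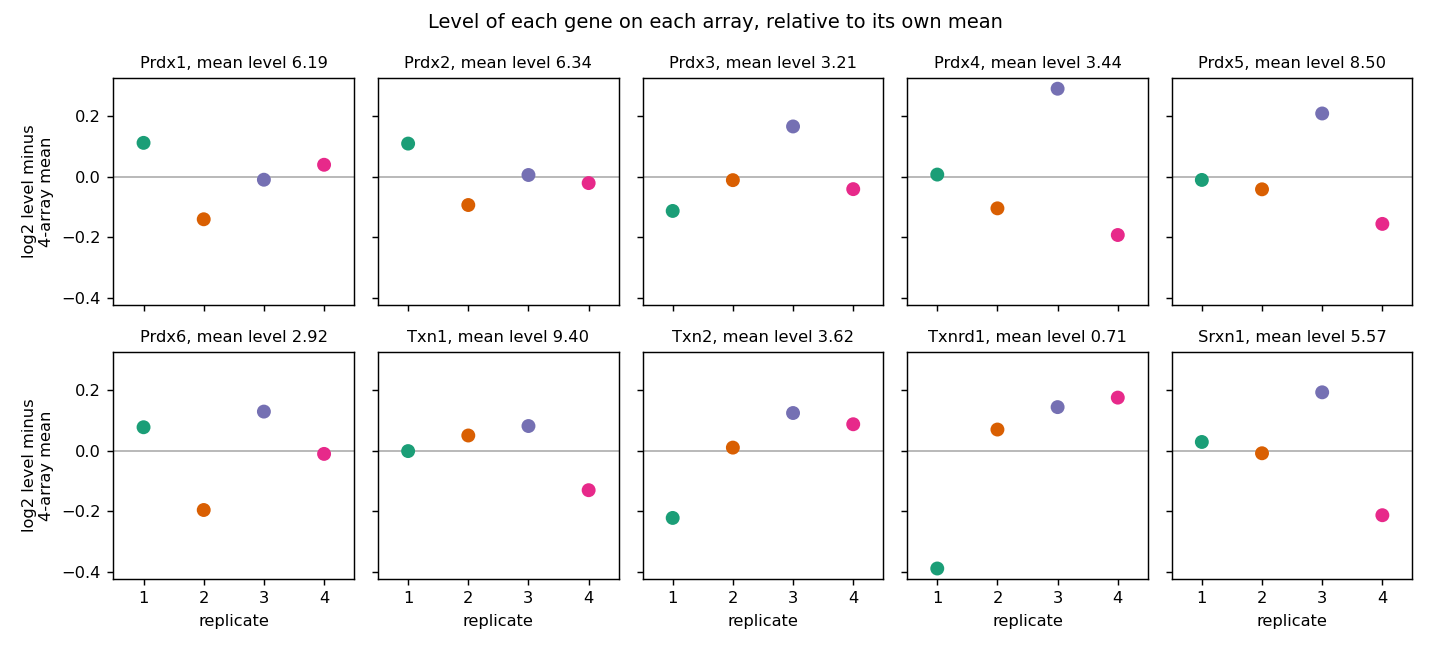
Each panel shows 1 gene, with the replicate on the x axis and the log2 level minus the gene's mean over the 4 arrays on the y axis; the mean level stands above each panel. Replicate 3 is the highest point for 7 of the 10 genes, and the lowest point of all panels is Txnrd1 on replicate 1, at -0.39.

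The same comparison with neighbouring spots was made for the other probes printed once. For Prdx2 the 49 neighbours had median deviations of 0.20 on replicate 1 and -0.18 on replicate 2, against 0.11 and -0.09 for Prdx2. The order of these 2 arrays for Prdx2 turned round when the neighbours were taken off (-0.09 and 0.09). For Prdx4 the neighbours deviated in the same direction as its own spot on every array, at 0.11 on replicate 3 and -0.08 on replicate 4. Prdx4 still lay 0.18 above them on replicate 3. Its SD was 0.128 after the neighbours were taken off, against 0.210 before. For Txn2 and for both Txnrd1 probes the neighbours' medians lay between -0.04 and 0.04 on every array. The low values of Txn2 and of the brighter Txnrd1 probe on replicate 1 were -0.24 and -0.40 after the neighbours were taken off. For Prdx6 the neighbours stood at 0.11 on replicate 1 and between -0.04 and -0.01 on the others, and its low value on replicate 2 was -0.16 after they were taken off.

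**Figure D2:**
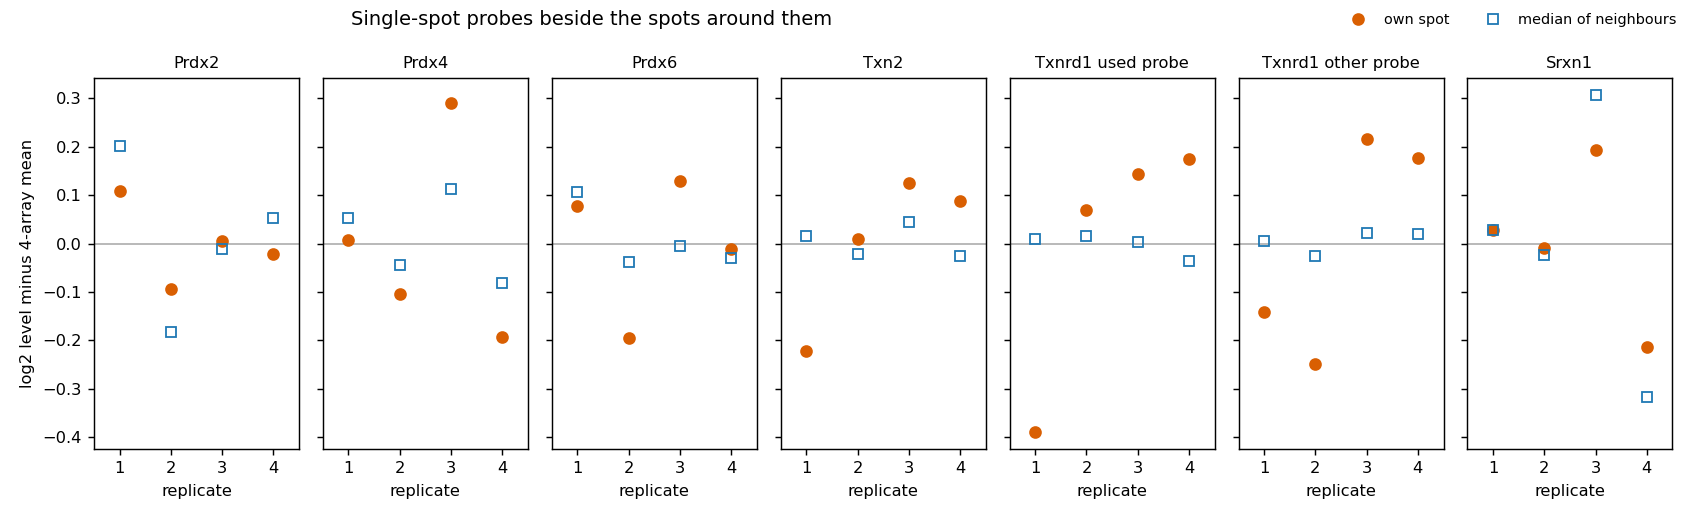
The 7 probes printed once, with the replicate on the x axis and the log2 level minus the 4-array mean on the y axis. Filled circles are the probe's own spot and open squares the median of the well-measured spots within 5 rows and columns. Circles and squares move together for Srxn1 and Prdx2, in the same direction for Prdx4 and apart for Txnrd1.

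The probes of 3 genes were printed 10 times, which allows differences between arrays to be set against the noise of single spots. For Prdx1 the spots of an array had an SD of 0.05 to 0.17, for Prdx5 of 0.11 to 0.16 and for Txn1 of 0.05 to 0.09. Spots that the scanner software marked as outliers were left out, which kept 8 to 10 spots per array. The arrays differed beyond spot noise for all 3 (limma moderated F test, adjusted p = 0.00071 for Prdx1, 3.7e-05 for Prdx5 and 3.3e-06 for Txn1, Benjamini-Hochberg over 1350 probes printed 3 or more times).

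These calls were no exception, since 82.1% of the replicated probes passed the same test. The test also takes in any error in the scaling of an array, which moves all of its probes at once. Without replicate 2 the call for Prdx1 was lost (adjusted p = 0.11, limma), and without replicate 3 that for Prdx5 (adjusted p = 0.082, limma), over ranges of 6.4e-10 to 0.11 and 2.6e-08 to 0.082 in all alternatives. Txn1 passed in all of them (adjusted p = 4.4e-16 to 0.04, limma). Prdx3, with its 2 spots, missed the threshold when such probes were added (adjusted p = 0.074, limma). The spot ranges of the highest and lowest arrays overlapped for each of the 3 genes. For Txn1 they were 9.36 to 9.56 on replicate 3 and 9.15 to 9.45 on replicate 4. The spots of a probe lie at the same positions on every array, and neither the ranges nor the test pair them. At every position kept on both arrays, the highest array read above the lowest for each of these genes.

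**Figure D3:**
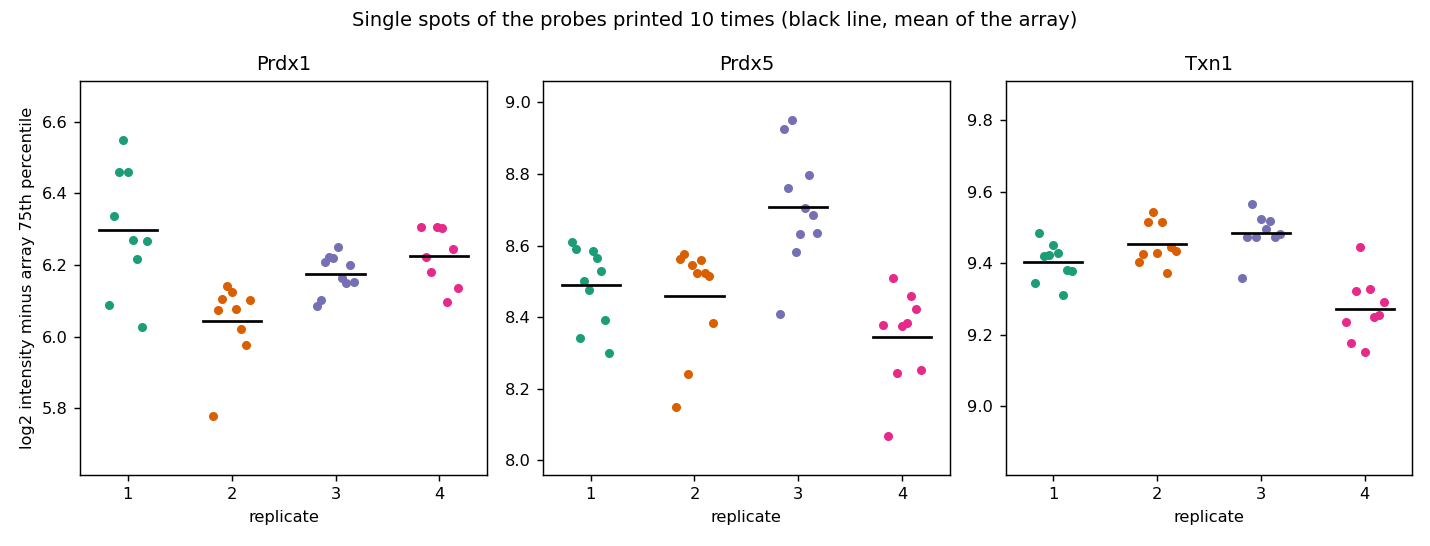
Single spots of the Prdx1, Prdx5 and Txn1 probes, with the replicate on the x axis, the log2 level on the y axis and a black line at each array's mean; all panels span the same number of log2 units. Replicate 2 is low for Prdx1, replicate 3 high for Prdx5 and replicate 4 low for Txn1.

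The median SD over the 10 genes was 0.148, against 0.164 over the 8424 named genes detected on all arrays. It was 0.144 over the 5407 of these whose level was at least that of Txnrd1. The median of the 10 genes lay above that of all detected genes with the array median (0.405 against 0.390) and without replicate 2 (0.164 against 0.162). The SD lay below the median of all detected genes for 7 of the 10, and above it for Srxn1, Prdx4 and Txnrd1. No gene of the family reached the 95th percentile of detected genes, which was 0.411. After normexp the medians were 0.140 for the 10 genes and 0.142 for all detected genes. Single SDs moved by more when 1 array was left out: Prdx5 had 0.077 without replicate 3, Prdx3 0.052 without replicate 3, Txn2 0.058 without replicate 1, Prdx6 0.071 without replicate 2, Prdx1 0.061 without replicate 2 and Txn1 0.042 without replicate 4.

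**Figure D4:**
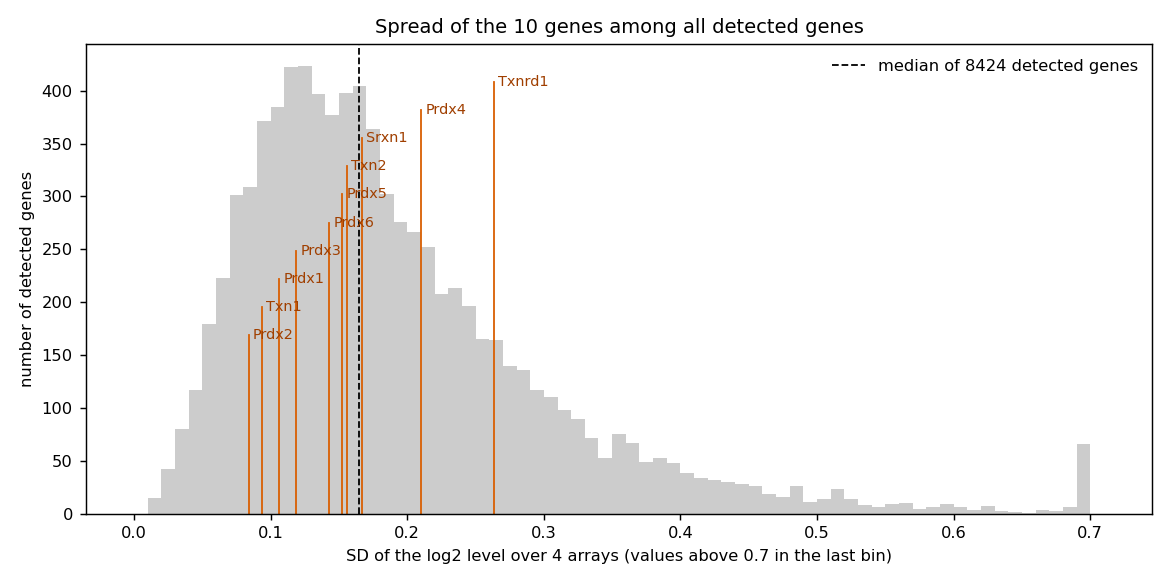
Histogram of the SD of the log2 level over the 4 arrays for the detected genes, with the number of genes on the y axis, a dashed line at their median and a labelled line for each of the 10 genes. The 10 SDs run from 0.084 (Prdx2) to 0.263 (Txnrd1) with 4 arrays scaled to the 75th percentile; Prdx2 is at 0.252 after normexp and Txnrd1 at 0.054 without replicate 1, which are not drawn.

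On replicate 3, 7 genes were highest, namely Prdx3, Prdx4, Prdx5, Prdx6, Txn1, Txn2 and Srxn1, against 31.5% of the detected genes. Prdx1 and Prdx2 were highest on replicate 1 and Txnrd1 on replicate 4. With the neighbouring spots taken off, Prdx4 and Prdx6 were still highest on replicate 3. Srxn1 was then lowest there, at -0.11, and Txn2 was highest on replicate 4, at 0.11 against 0.08 on replicate 3. Probes printed more than once were not set against neighbours. Which array came highest also depended on how the arrays were scaled. The number highest on replicate 3 was 5 under quantile normalization and after normexp background correction, 10 with the array median and 1 when the arrays were scaled on the spike-in control spots. With the spike-in spots all 10 genes were lowest on replicate 1. All detected genes moved likewise, with a median deviation from each gene's mean of -0.275 there, against -0.304 for the 10 genes. With the array median all detected genes stood at 0.460 on replicate 3, against 0.567 for the 10 genes. These counts are not set against the share of all detected genes under the same scaling. Under the scaling used for the levels, the median deviation of the 10 genes was 0.14 on replicate 3, against 0.03 for all detected genes there. On the other replicates that of the 10 genes lay between -0.03 and 0.00. The difference of 0.11 from all detected genes cannot change with a constant factor for the array, so that 4 of the 9 ways of processing give the same value by construction. The other ways gave 0.09 to 0.12, and leaving out another replicate 0.07 to 0.13. The difference was not tested.

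**Figure D5:**
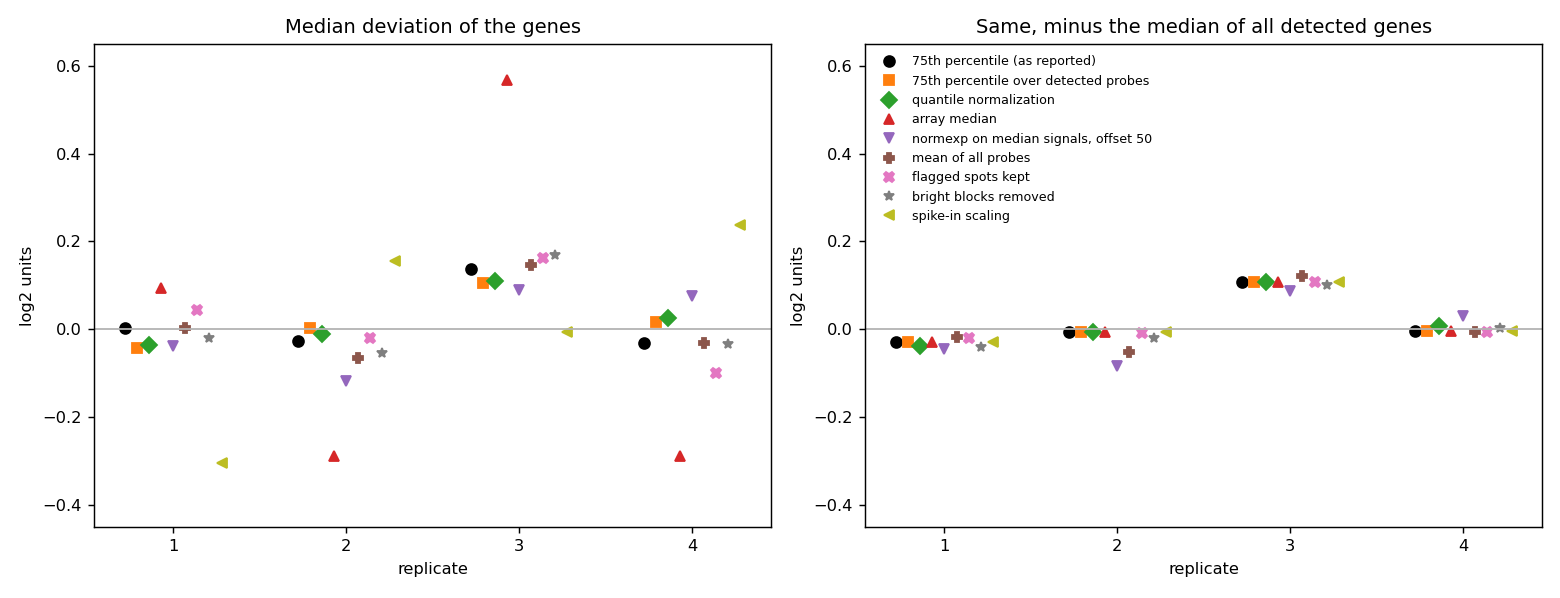
Median deviation of the 10 genes from their own means (left) and the same minus the median over all detected genes (right), in log2 units on the y axis for each replicate on the x axis, with 1 symbol for each way of processing (9 genes where the bright blocks were removed). On the left the symbols spread from -0.01 to 0.57 on replicate 3; on the right they lie between 0.09 and 0.12 there, where settings that differ by a constant for the array coincide by construction.

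Ratios between 2 genes on the same array do not depend on a common factor for the array. Over the 45 pairs of the family, the SD of the log2 ratio across the 4 arrays had a median of 0.167, against 0.248 over all pairs of detected genes. Of the 45 pairs 38 lay below 0.248, but they share the same 10 genes and are not independent. The pairs of all detected genes take in genes dimmer than any of the 10. No pairs of genes with like levels were examined. After normexp the medians were closer, 0.198 against 0.209, and 25 of the 45 pairs lay below that of all pairs. Prdx1 over Prdx2 had the smallest SD, 0.045 (n = 4), with log2 ratios of -0.15, -0.20, -0.17 and -0.09. After normexp its SD was 0.133, and Prdx3 over Txn1 was the narrowest pair. Prdx1 and Prdx2 have related sequences, and whether either probe also binds the other transcript was not tested. The neighbours of the single Prdx2 spot moved with it, at 0.20 on replicate 1 and -0.18 on replicate 2. With them taken off, Prdx2 stood at -0.09 and 0.09 there, against 0.11 and -0.14 for Prdx1. Prdx5 over Srxn1 came next at an SD of 0.045, with log2 ratios of 2.89, 2.89, 2.94 and 2.98, and here too the neighbours of the Srxn1 spot moved with it. After normexp its SD was 0.246. Prdx4 over Prdx5 followed at an SD of 0.064, and the neighbours of the Prdx4 spot deviated in the same direction as it on every array. The 7 widest pairs were all pairs of Txnrd1, up to an SD of 0.339 for Prdx4 over Txnrd1, but only 2 of the 7 widest were so without replicate 1 and likewise after normexp. By the brighter Txnrd1 probe, Txn2 over Txnrd1 had an SD of 0.115, and of 0.034 without replicate 1. Pairs were ordered after their values were seen and carry no test.

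Other genes of the redox system were taken from 7 fixed lists of 55 genes, of which 48 were measured and 41 detected on all 4 arrays. Their median SD was 0.142, near that of the 10 genes. Of these 41 genes 15 were highest on replicate 3, which is 36.6%, and their median deviation there was 0.07.

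Among reductases, inhibitors and relatives of thioredoxin, 6 of 9 measured genes were detected on all arrays. Txnrd2, the mitochondrial reductase, had levels of -0.36, -0.15, 0.00 and -0.28 on replicates 1 to 4, an SD of 0.16 (n = 4). Txnip, which binds and inhibits thioredoxin, had levels of 2.01, 1.53, 1.88 and 1.84 and was lowest on replicate 2. The SD was largest for Txndc9, a relative that works with the chaperonin CCT (3.60 ± 0.25), and smallest for Txnl4b (2.22 ± 0.12; SD, n = 4 for both). Txnrd3 and Txndc8 were detected on 2 arrays and Txndc2 on none. In other mammals Txnrd3, Txndc2 and Txndc8 are known from the testis.

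Thioredoxin-fold proteins and oxidases of the endoplasmic reticulum, which form and rearrange disulfides, were detected in 12 of 13 measured cases. Txndc5 had a level of 2.70 ± 0.19, and the SD was largest for Tmx4 (2.68 ± 0.27) and smallest for Txndc12 (2.61 ± 0.09; SD, n = 4 for all). Ero1b was detected on no array, whereas Ero1a, the oxidase that recharges protein disulfide isomerase, had levels of 3.37, 3.15, 3.24 and 3.13. P4hb, the protein disulfide isomerase itself, had levels of 5.83, 5.89, 6.25 and 5.76 on replicates 1 to 4. Of its 10 spots 3 lie in blocks that were bright on replicate 3 or 4.

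The glutathione-dependent arm was detected in 4 of 4 measured genes. Glrx, the cytosolic glutaredoxin, had levels of 3.80, 3.55, 3.50 and 3.79, and Gsr, which reduces oxidised glutathione, 0.72, 0.61, 0.64 and 0.84. Glrx3 had the largest SD (5.08 ± 0.23) and Glrx5, the mitochondrial glutaredoxin of iron-sulfur cluster assembly, the smallest (3.97 ± 0.10; SD, n = 4 for both).

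Of the enzymes and proteins that thioredoxin serves, 6 of 8 measured were detected. Rrm1, the large subunit of ribonucleotide reductase, had a level of 4.30 ± 0.13 (SD, n = 4). Among methionine sulfoxide reductases Msra had the largest SD of the list (-1.02 ± 0.21) and Msrb1 the smallest (4.81 ± 0.07; SD, n = 4 for both). Map3k5, which encodes the kinase ASK1 that thioredoxin holds inactive, and Rrm2b were detected on no array.

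Both measured sestrins, stress proteins that bind regulators of the kinase mTORC1, were detected. Sesn2 had levels of 0.25, 0.60, 0.69 and 0.66 on replicates 1 to 4. Sesn3 had levels of -1.83, -1.07, -1.39 and -1.64, and its SD of 0.33 (n = 4) was larger than that of 89.5% of the detected genes.

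All 6 genes for the synthesis of selenoproteins, on which the selenocysteine of Txnrd1 depends, were detected. Secisbp2, which binds the selenocysteine insertion element, had a level of 3.20 ± 0.09, and Sephs2, which makes the selenium donor, 3.07 ± 0.14 (SD, n = 4 for both). Pstk had the largest SD (-0.82 ± 0.26) and Trnau1ap the smallest (1.11 ± 0.07; SD, n = 4 for both). On replicate 1, 3 of the 6 genes were lowest, against 20.9% of all detected genes, and 2 were highest, against 31%. The single spot of Sephs2 lies in a block that was bright on replicate 3.

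Of 6 regulators of the NRF2 pathway 5 were detected on all arrays. Nfe2l2, which encodes NRF2, had levels of 5.18, 5.35, 5.26 and 5.07, and Keap1, which directs NRF2 to degradation, 0.80, 0.71, 0.76 and 0.81. Keap1 had the smallest SD of the list at 0.04 and Mafk, a small MAF partner of NRF2, the largest at 0.38 (n = 4 for both). Mafk and Mafg were both highest on replicate 3 and lowest on replicate 4, at -0.53 and -1.41 for Mafk and at 3.42 and 2.84 for Mafg. Bach1, a repressor at the same elements, was detected on 3 arrays. Of these 5 genes 4 were lowest on replicate 4, against 29.8% of all detected genes.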

How the data were processed

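Total RNA of 4 biological replicates of NR8383 cells given Printex90 was read on 1-colour arrays that share a slide and a scan. The authors deposited linear spot intensities. The submitters' processing notes name Agilent Feature Extraction 11.0.1.1, whose processed signal had the background subtracted and no normalization between arrays, per the file headers. The labels call the replicates biological, and no untreated arrays were analysed here.

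Spots flagged as non-uniform or population outliers were left out. The log2 processed signals of a probe's spots were averaged, and the 75th percentile of each array was subtracted. Probes were named by RefSeq accession in the GRCr8 gene table, which named 21109 of 45598 probes. A gene takes its probe with the highest mean, and is detected where any spot of it is well above background. Among the 10 genes only Txnrd1 has 2 probes. The number of arrays, 4, limits the precision. Probes printed 3 or more times were fitted spot by spot with limma 3.58.1 in R 4.3.3, with arrays as factor levels. The moderated F test was called at an adjusted p of 0.05. It was also run on simulated data, which held no error in the scaling of an array. Blocks of 16 rows and 8 columns were called bright where over 10% of unnamed spots exceeded all other arrays by at least 1 on the log2 scale. Python 3.11.15 with numpy 2.4.6, pandas 2.3.3 and matplotlib 3.10.9 did the rest.

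The genes and lists were chosen with earlier results of these data known. All 10 genes are given, and of each other list the first detected gene, those with the largest and smallest SD and those not detected on all arrays, and further listed genes named for their role were chosen after their values were seen. The files hold no mean signal, so that normexp used median signals with an offset of 50. Scaling on 7 spike-in probes, and the ratios between genes under each setting, were added after the data were seen. Array coordinates are not used, since the array was built on another assembly than GRCr8.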

Additional observations from a re-analysis of the deposited data

Results flagged for a closer look

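Only 1 gene was flagged among the 51 detected genes of the family and the 7 further lists. Pdia6, a protein disulfide isomerase of the endoplasmic reticulum, had a level of 5.16 on replicate 3, while the other arrays lay between 4.80 and 4.84. The gap to the nearest of these makes up 0.885 of the whole range, above Dixon's 95% critical value for 4 values. Chance alone flags about 1 in 20 genes, so that 1 flag among 51 genes is not more than chance gives. Of its 10 spots 2 lie in blocks that were bright on replicate 3, the array of the flagged value. Their part in the value was not tested.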

How the results depend on the processing

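No paired analysis was possible because only 1 group was analysed. Detection held at 10 of 10 genes under the other detection rules, and at 9 where bright blocks were removed. The median SD was 0.405 with the array median and 0.222 with spike-in scaling, against 0.148, and 0.113 to 0.164 when 1 replicate was left out. All detected genes had 0.390 with the array median and 0.288 with spike-in scaling. Without replicate 2 they had 0.162, below the 0.164 of the 10 genes, and without any other replicate they lay above the 10 genes. With the array median the median deviations on replicates 2, 3 and 4 were -0.289, 0.567 and -0.289, where all detected genes moved to -0.284, 0.460 and -0.284. With the spike-in spots those on replicates 1, 2 and 4 were -0.304, 0.155 and 0.237, where all detected genes moved to -0.275, 0.161 and 0.242. Both shifts come from the factor of the array, and the cause of the difference between the factors was not tested. Leaving out 1 replicate moved the median deviations to between -0.051 and 0.076 on replicate 1, -0.087 and 0.036 on replicate 2, 0.105 and 0.145 on replicate 3, and -0.064 and -0.003 on replicate 4. The F test called 2 to 3 of the 3 replicated probes without 1 replicate, where 65.9% to 76.4% of all tested probes were called. Under the other settings it called all 3, while 53.8% to 97.2% of all tested probes were called. Prdx3, which came in where probes with 2 spots were added, was not called. Signal over background limits none of the 10 genes, while most single-spot probes have no spot noise to set a difference against.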
